A study of Rattus norvegicus with 4 samples.

Results

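Foxq1, Foxa1, Foxa2, Foxa3 and Foxm1 are forkhead transcription factor genes, and their transcripts were measured in the testis of young rats that received antibody to follicle-stimulating hormone (FSH) or a control immunoglobulin. They were taken as every probe set that the platform annotation pairs with exactly 1 gene symbol out of these 5. A probe set is the group of short probes on an array that reads 1 transcript. The rule found 6 probe sets, 2 for Foxa3 and 1 for each of the other genes, among 7006 single-symbol probe sets of 4736 genes. Foxq1 was selected on its measured difference between antibody and control arrays, and the other 4 genes were set beside it as relatives, so all differences of these 6 probe sets are given as descriptions with no test. A further 13 forkhead genes on the array, with 15 probe sets, served for comparison.

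The treated group consisted of male Sprague Dawley rats that received an antibody raised in sheep against rat FSH for 4 days. The control group consisted of male rats of the same strain that received sheep immunoglobulin for the same time. Each group had 2 RNA samples, each hybridised to 1 Affymetrix rat U34 array of set A. The labels do not settle the age. Every source name gives postnatal day 18. The protocol has injections from day 18 and collection on day 22, and the series design has day 14. The title of the second antibody sample names postnatal day 4 while its source name gives the antibody. The labels also do not settle the number of animals. Each source name gives 1 rat, and the extraction text describes pools of about 20 organs that it calls ovaries. The spread given below is therefore that between 2 RNA samples, and the number of arrays limits its precision.

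Forkhead proteins share a winged-helix DNA-binding domain. FOXA1, FOXA2 and FOXA3 are pioneer factors, which bind closed chromatin and open it for other regulators, and are best known from liver, lung and gut. FOXM1 drives the genes of mitosis in dividing cells. FOXQ1, first cloned as HFH-1, is known in mice for the hair shaft and for mucin production in the stomach, and in cancer cells for the change from an epithelial to a mesenchymal state. In the testis, FSH acts on Sertoli cells, the somatic cells that nurse the germ cells, through a receptor that raises cyclic AMP.

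The sequence before the Foxq1 start site is shown because Foxq1 was the forkhead gene with the wide difference. It is the 250 bases upstream of the annotated start, chr17:33124088-33124337 on the minus strand in RefSeq's build GRCr8, written 5′ to 3′. The capitals mark matches to AAACA, the reverse complement of TGTTT, the short core that forkhead proteins recognise.
Foxq1: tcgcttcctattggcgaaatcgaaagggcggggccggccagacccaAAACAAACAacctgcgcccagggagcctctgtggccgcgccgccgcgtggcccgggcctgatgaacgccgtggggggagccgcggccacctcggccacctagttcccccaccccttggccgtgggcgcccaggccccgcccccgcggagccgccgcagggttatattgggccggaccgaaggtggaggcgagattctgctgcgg

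Motifs were searched on both strands of this stretch and of the same stretch of all 33469 genes in the table. The 2 matches to the forkhead core in Foxq1 overlap by their last and first base and lie between 204 and 196 bases before the start. A match is common, since 47.0% of all promoters hold at least 1. The longer forkhead site TGTTTAC (3.21% of promoters) was not found in the Foxq1 window. Neither were the cyclic AMP response element TGACGTCA (1.59%) and its core TGACG (18.2%), which lies inside the full element. The CCAAT box (34.0%) matched at 2 places, and TATAAA (12.9%) at none. The window was 71.6% G and C, against a median of 51.2% over all promoters. The table also held Foxa2, with 4 matches to the forkhead core, and Foxa3, with 0. Foxa1 and Foxm1 were not in it. These matches are letters in a window and were not tested as binding sites.

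Foxq1 (probe set L13201_at) had intensities of 119.8 and 109.2 on the antibody arrays and of 35.6 and 37.7 on the control arrays. Both antibody values lay far above both control values, and replicates lay close together. The mean was 115 ± 7.50 in the antibody group and 36.7 ± 1.48 in the control group (SD, n = 2 each), a ratio of 3.12. Intensities are linear, and differences below are on the log2(intensity + 16) scale, antibody minus control, which understates the change of dim probe sets.

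On that scale the Foxq1 difference was 1.31, and the 4 pairs of 1 antibody and 1 control array gave 1.22 to 1.40. Ordered from the highest difference down, it ranked 7 of the 5244 probe sets bright enough to be tested. Foxq1 was 1 of the 6 probe sets called higher by limma over the tested probe sets, and 8 were called lower, which is 0.114% higher and 0.153% lower, or 0.267% in all. That call chose the gene and is no support for it. The call also depended on the processing, since no probe set at all passed with quantile normalization, with no filter on dim probe sets, or without either of the control arrays. The Foxq1 difference itself was 1.29 with quantile normalization and 1.26 with each array centred on its median, and leaving out 1 array gave 1.25 to 1.37. A larger or smaller added constant moved it most, to 0.83 with 64 and 1.62 with 1.

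The level of Foxq1 among all 8740 probe sets that are not controls was at percentiles 73.0 and 71.9 on the antibody arrays and 48.1 and 50.6 on the control arrays. It was thus near the middle of the array in the control testis and in the upper part after the antibody. Intensities of different probe sets also depend on their probes, so these percentiles place a probe set on the array and do not rank the transcripts. The SD between replicates, pooled over the groups, was 0.07 on the log2 scale. Of the 500 probe sets nearest in mean level, 11.8% had a smaller one. The limma statistic that chose Foxq1 uses this spread, so a small value goes with the choice.

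**Figure D1:**
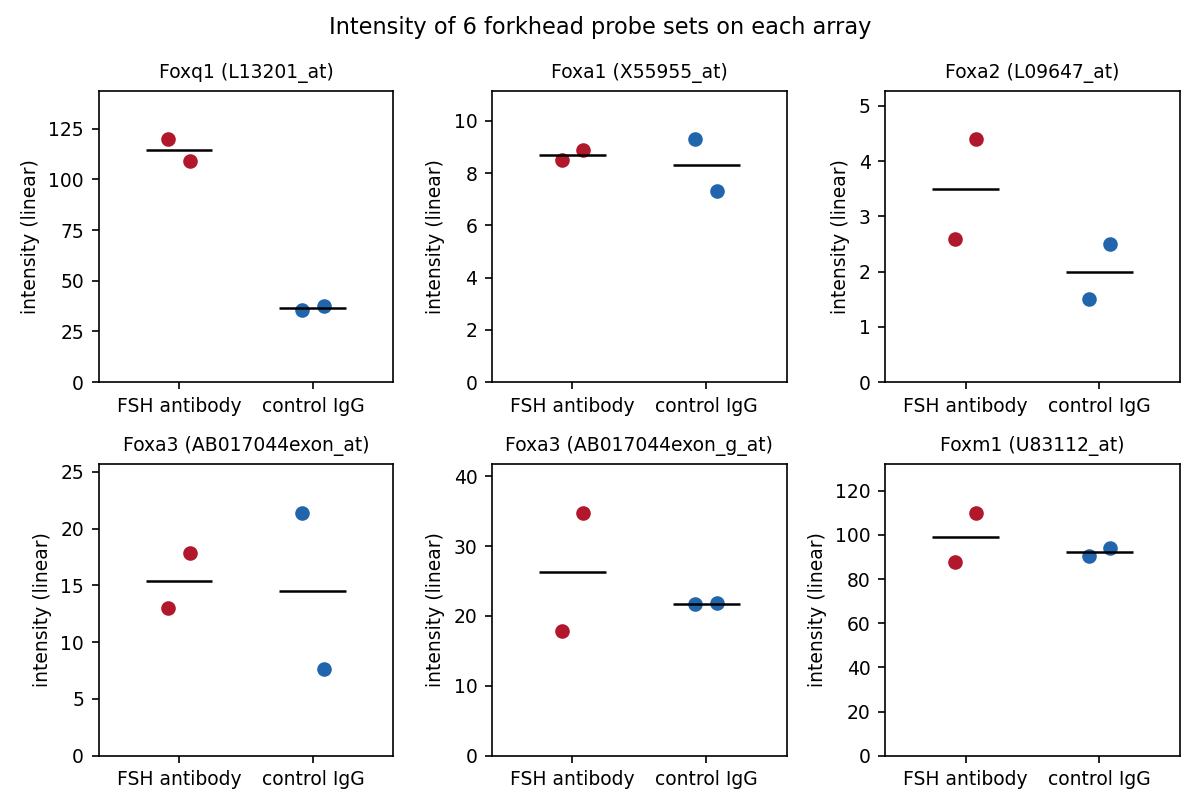
Linear intensity (vertical axes, each starting at 0) of the 6 probe sets of Foxq1, Foxa1, Foxa2, Foxa3 and Foxm1 on the 2 FSH antibody and 2 control IgG arrays; points are arrays and bars are group means. The groups stand far apart for Foxq1 (119.8 and 109.2 against 35.6 and 37.7) and overlap for Foxa1, both Foxa3 probe sets and Foxm1.

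Foxm1 (U83112_at), the regulator of mitotic genes, was the only other of these 5 genes with a probe set bright enough to be tested. Its intensity was 87.7 and 110.1 on the antibody arrays and 90.4 and 94.0 on the control arrays. The groups overlapped, with 1 antibody array below and 1 above both controls. The means were 98.9 ± 15.8 in the antibody group and 92.2 ± 2.55 in the control group, a log2 difference of 0.08. The pairs of arrays ran from −0.09 to 0.25, and without antibody replicate 2 the difference was −0.06. Foxm1 lay between percentiles 66.9 and 72.0 of the array on all 4 arrays.

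Foxa1 and Foxa2 were dim in every sample, and no probe set of the 3 Foxa genes was bright enough to be tested. Foxa1 (X55955_at), a pioneer factor of endoderm and hormone-responsive epithelia, had 8.5 and 8.9 on the antibody arrays and 9.3 and 7.3 on the control arrays. Its groups overlapped (log2 difference 0.02), and the difference was −0.09 with quantile normalization and −0.02 with median centring. Foxa2 (L09647_at), needed in mice for the notochord and floor plate, had 2.6 and 4.4 on the antibody arrays and 1.5 and 2.5 on the control arrays. Its groups did not overlap, but the nearest values were 2.6 and 2.5 and all 4 lay between percentiles 4.38 and 9.36 of the array. Its log2 difference was 0.11, and 0.58 with a constant of 1, a setting that widens differences between such low values.

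Foxa3, which in mice also has a role in keeping germ cells in the ageing testis, had 2 probe sets from the same sequence entry. AB017044exon_g_at had 17.8 and 34.8 on the antibody arrays and 21.7 and 21.8 on the control arrays. AB017044exon_at had 13.0 and 17.8 on the antibody arrays and 21.4 and 7.6 on the control arrays. Antibody replicate 2 was high on the first, control replicate 1 was high and control replicate 2 low on the other, and the groups overlapped on both. The log2 differences were 0.13 and 0.08, and when 1 array was left out they ran from −0.16 to 0.43 and from −0.26 to 0.41. The first had a mean level of 5.3056, just below the 5.3093 that a probe set needed to be tested.

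All 6 differences were above 0, but so were most on these arrays. The 5 probe sets other than Foxq1 had a median of 0.08, against 0.06 over all 8740 probe sets. Of those 5, 1 (Foxa2) had groups that did not overlap, with the antibody higher, and over all probe sets this was 27.6% higher and 12.2% lower. With quantile normalization 2 of the 5 turned below 0, Foxa1 and AB017044exon_at of Foxa3. No detection calls were used, so whether the Foxa probe sets were above background cannot be told. In bulk testis RNA, a change in the number of cells of a type and a change in RNA per cell cannot be told apart.

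**Figure D2:**
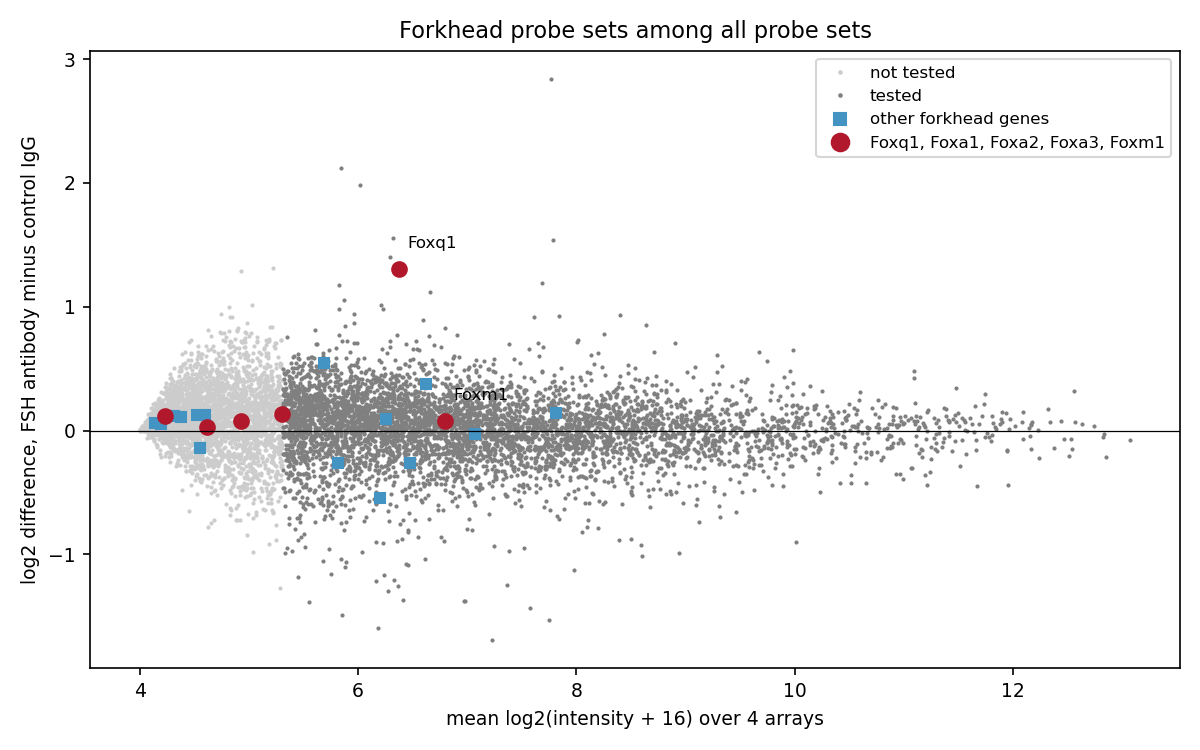
Each point is a probe set, by its mean log2(intensity + 16) over the 4 arrays (horizontal) and its log2 difference, FSH antibody minus control IgG (vertical). Foxq1 lies at a mean of 6.37 and a difference of 1.31, outside the band of most probe sets, while Foxm1 (0.08) and the Foxa probe sets (0.02 to 0.13) lie inside it.

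The 13 other forkhead genes were compared between the groups to see whether further members of the family differed. Of their 15 probe sets, 8 were tested by limma over all 5244 tested probe sets. None passed the adjusted threshold, and 1 had an unadjusted p under 0.05, a threshold that 8.10% of all tested probe sets met. The median difference of the 8 was 0.04, against 0.03 over all tested probe sets. Groups did not overlap for 2 with higher and 2 with lower values, against a background of 21.9% higher and 15.5% lower.

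Foxn1, known for the thymus and hair of the nude mouse, had 42.6 and 50.0 on the antibody arrays and 33.7 and 20.5 on the control arrays. It was the 1 with an unadjusted p under 0.05 (log2 difference 0.55 ± 0.22, limma, adjusted p = 0.575), and both antibody values were above both controls. Foxe3, a lens regulator, had 42.8 and 47.3 on the antibody arrays and 109.4 and 47.2 on the control arrays (−0.55 ± 0.29, limma, adjusted p = 0.682). Only control replicate 1 stood apart there, and without it the difference was −0.05. Foxe1, a thyroid regulator, had 71.6 and 58.7 on the antibody arrays and 85.0 and 77.6 on the control arrays (−0.27 ± 0.18, limma, adjusted p = 0.778), with both antibody values the lower ones.

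Foxd3, known from pluripotent cells and the neural crest, had probe sets that disagreed in level. L13202_f_at had 96.6 and 95.6 on the antibody arrays and 61.3 and 80.8 on the control arrays (0.37 ± 0.19, limma, adjusted p = 0.652). L13202_i_at, from the same sequence entry, lay between 2.9 and 6.0 on all arrays. In Affymetrix naming the suffix _f_at marks probes that can match several members of a gene family, so the level of the first cannot be assigned to Foxd3 alone.

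Foxs1, known from pericytes, had 34.9 and 36.3 on the antibody arrays and 56.4 and 36.6 on the control arrays, and it did not pass (−0.26 ± 0.22, limma, adjusted p = 0.839). Control replicate 1 stood apart, and the difference was −0.03 without it and −0.49 without control replicate 2. Foxo1, which in mice is needed in spermatogonial stem cells, gave 0.10 ± 0.19. Foxn3, a repressor, gave 0.15 ± 0.18 and Foxk2, a factor that in cells restrains autophagy genes, gave −0.02 ± 0.23, all with overlapping groups. These 3 had adjusted p of 0.883 to 0.986 by limma. The probe sets of Foxd1, Foxc2, Foxi2, Foxd4 and Foxj1, like the second one of Foxd3, were too dim to be tested. Foxj1, the regulator of motile cilia, lay between 2.5 and 10.9, and Foxc2 between 1.2 and 2.0.

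**Figure D3:**
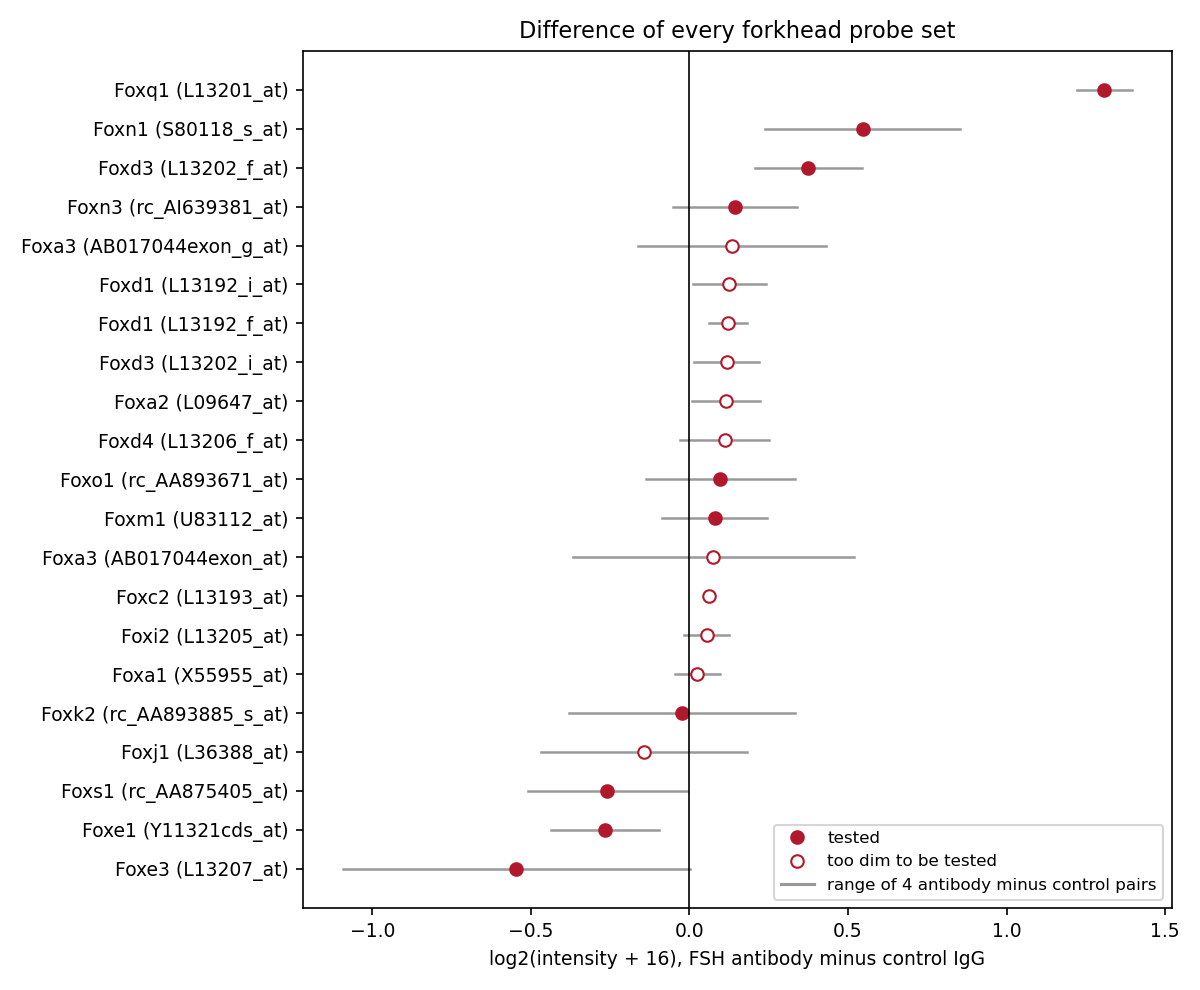
Log2 difference of log2(intensity + 16), FSH antibody minus control IgG, for all 21 forkhead probe sets; points are differences of group means, filled where the probe set was tested, and lines span the 4 pairs of 1 antibody and 1 control array. Foxq1 (1.31) lies apart at the top, and the other 20 lie between −0.55 and 0.55.

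In the RefSeq gene order Foxq1 lies beside other forkhead genes, Foxf2 and Foxc1, which were not analysed here. Its neighbour on the other side, Exoc2, a subunit of the exocyst that tethers secretory vesicles, had 2 tested probe sets and was looked up after its values could be seen. AF032666_at had 175.5 and 150.2 on the antibody arrays and 151.9 and 132.4 on the control arrays. AF032666_g_at had 51.4 and 26.7 on the antibody arrays and 48.1 and 42.4 on the control arrays. The groups overlapped on both, and the differences were 0.18 ± 0.18 and −0.19 ± 0.25 (limma, adjusted p = 0.860 and 0.892).

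The genes whose values over the 4 arrays were most like those of Foxq1 were Testin, Edn1, Lipa, Gsta3 and Igfbp3. Likeness was the root mean square difference between profiles of log2(intensity + 16), each taken as deviations from its own mean, over 4341 tested probe sets of 3163 genes. Testin, which Sertoli cells secrete, was nearest at 0.16, against a median of 0.66 over all candidates. It had 114.4 and 127.9 on the antibody arrays and 28.2 and 33.1 on the control arrays. Edn1, which encodes the peptide endothelin 1, followed at 0.17, with 88.1 and 89.8 on the antibody arrays and 38.3 and 34.0 on the control arrays.

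Lipa, the lysosomal acid lipase, was at 0.21 with 430.5 and 474.5 on the antibody arrays and 215.3 and 242.8 on the control arrays. Gsta3, a glutathione transferase, was at 0.24, and Igfbp3, which binds insulin-like growth factors, at 0.25. All 5 had both antibody values above both control values, which the measure favours because Foxq1 does. With 4 arrays in 2 groups, likeness mostly reads the shared contrast between groups.

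**Figure D4:**
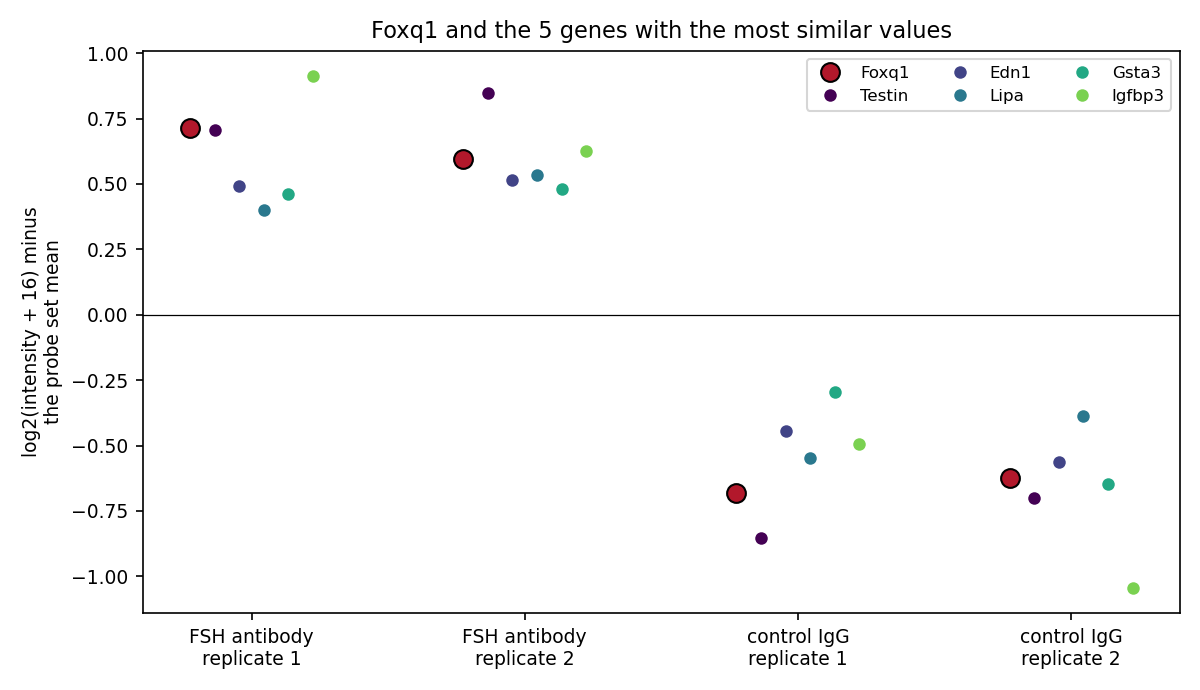
Deviation of log2(intensity + 16) from the probe set's own mean (vertical) on each of the 4 arrays (horizontal) for Foxq1 and the 5 genes with the most similar values. All 6 lie above 0 on both FSH antibody arrays and below 0 on both control IgG arrays.

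Genes linked to these factors were described from lists, with no test of a list. FOXM1 targets and partners had 20 tested probe sets of 12 genes. None was called by limma in either direction and none had an unadjusted p under 0.05. Their median was −0.07, with a range of −0.24 to 0.45. Myc (Y00396mRNA_g_at), a growth regulator, had 35.2 and 54.2 on the antibody arrays and 32.8 and 23.6 on the control arrays (0.45 ± 0.23, limma, adjusted p = 0.680). The Myc probe set Y00396mRNA_at, from the same sequence entry, lay between 6.3 and 9.6 and was too dim to be tested. Its groups overlapped, with a difference of −0.08. Ccne1, the cyclin of entry into DNA replication, gave 0.23 ± 0.18 on D14015_g_at and 0.00 on D14015_at. Ccnb1, the mitotic cyclin, gave 0.20 ± 0.18 on X64589_at and −0.02 on its other probe set. Plk1 (−0.09), Aurkb (−0.24) and Cdk1 (−0.10), kinases of mitosis, likewise did not pass.

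Of the genes that FOXA factors regulate in liver, lung and gut, 20 were on the array with 43 probe sets, of which 7 were tested. None was called by limma and none had an unadjusted p under 0.05. Apoa1, the main protein of high-density lipoprotein, had 34.1 and 41.2 on the antibody arrays and 23.0 and 28.1 on the control arrays (0.37 ± 0.21, limma, adjusted p = 0.713). Apob (rc_AA997806_at), another lipoprotein component, gave 0.24 ± 0.20, and Cps1 (M11710cds_s_at), a urea cycle enzyme, 0.19 ± 0.20. The 7 had a median of 0.09. The other 36 probe sets were too dim to be tested. They include all other probe sets of Apoa1, Apob and Cps1 and every probe set of Alb, the main protein of blood plasma. On M00001_i_at, Apoa1 lay between 2.1 and 4.5 on all arrays.

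Among partners of FOXA proteins, Gata4, Gata6 and Nr3c1, the glucocorticoid receptor, had 5 tested probe sets, and none was called or had an unadjusted p under 0.05. Gata4, a regulator in Sertoli and Leydig cells, had 405.3 and 279.3 on the antibody arrays and 355.9 and 260.5 on the control arrays (L22761_at, 0.14 ± 0.22). Its other probe set, rc_AI234969_s_at, gave 0.26 ± 0.20. Nr3c1 gave 0.19 ± 0.20 on rc_AA893618_s_at and −0.06 ± 0.24 on M14053_at. The groups overlapped for all of these except rc_AA893618_s_at, where both antibody values were higher.

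Epithelial and mesenchymal genes linked to FOXQ1 had 13 tested probe sets of 7 genes. None was called by limma, and 3 had an unadjusted p under 0.05, against 8.10% of all tested probe sets. Of these 3, 2 were Cdh2 probe sets from the same sequence entry and are not independent. Cdh2, the cell adhesion protein N-cadherin, had 103.0 and 100.8 on the antibody arrays and 68.8 and 61.5 on the control arrays on AF097593_at (0.54 ± 0.17, limma, adjusted p = 0.469). The second Cdh2 probe set gave 0.48 ± 0.18 (limma, adjusted p = 0.551). Ocln, the tight junction protein occludin, had 52.4 and 70.5 on the antibody arrays and 80.2 and 111.7 on the control arrays on rc_AI638971_at (−0.53 ± 0.21, limma, adjusted p = 0.575). Its other probe sets gave −0.26 (rc_AI638971_g_at, from the same sequence entry) and −0.08, and on all 3 both antibody values were the lower ones. The remaining members ran from −0.34 to 0.26. The lowest of these, Fn1 on U82612cds_g_at, also had both antibody values lower, while its other tested probe sets overlapped. Of the 13, groups did not overlap for 2 with higher and 4 with lower values, against 21.9% and 15.5% of all tested probe sets. The median of the 13 was −0.03. Vim, the intermediate filament protein vimentin, gave −0.10 and Tjp1, a tight junction scaffold, −0.01. Muc5ac, the stomach mucin that FOXQ1 controls in mice, was too dim to be tested on both probe sets.

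**Figure D5:**
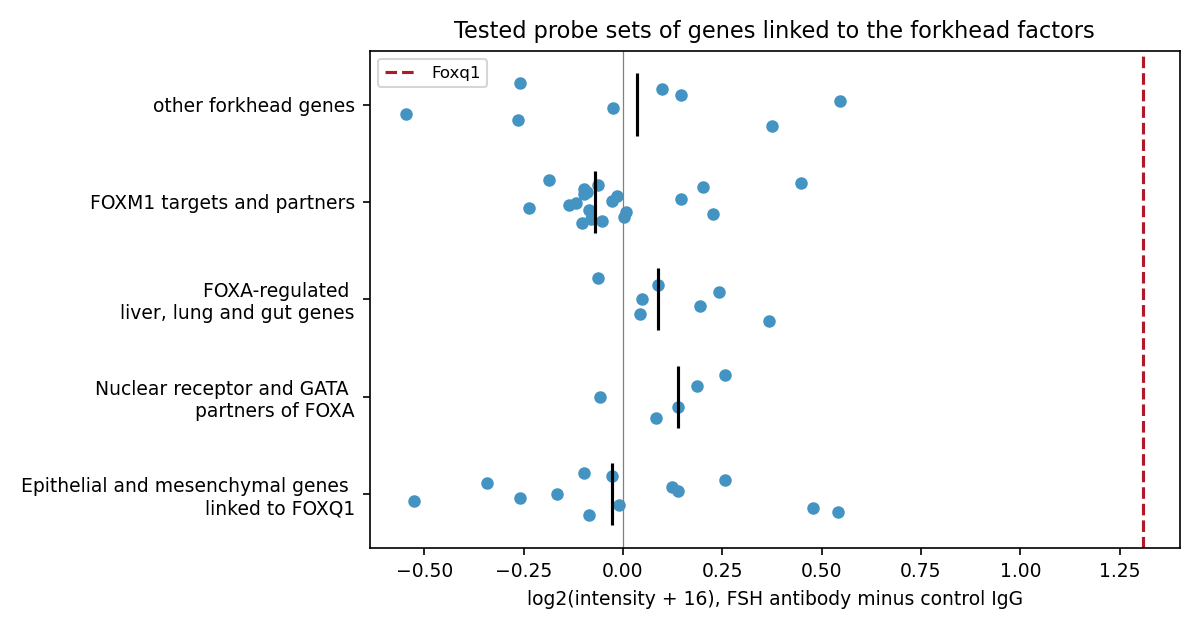
Log2 difference, FSH antibody minus control IgG, of each tested probe set (points) in 5 gene lists, with the median of each list (vertical bar) and the Foxq1 difference of 1.31 (dashed line). All list members lie between −0.55 and 0.55, and the list medians between −0.07 and 0.14.

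Markers of cell types were summed per array, with the brightest probe set of each gene, beside the Foxq1 values. The 11 Sertoli markers summed to 10422 and 11244 on the antibody arrays and 11266 and 10792 on the control arrays. Clu, the secreted chaperone clusterin, led them and alone gave 6440 to 7459 of each sum. The mean was 743 in the antibody group and 1406 in the control group for Inha, and 756 and 521 for Amh. Without overlap, 3 (Amh, Ctsl and Krt18) had higher and 3 (Inha, Shbg and Wt1) lower antibody values. Over all 8740 probe sets such values were 27.6% higher and 12.2% lower, the shares to read beside each count here. The 6 endothelial markers, led by Flt1, summed to 291 and 354 on the antibody arrays and 224 and 223 on the control arrays. Of these, 3 (Edn1, Flt1 and Nos3) had higher antibody values without overlap, against those 27.6% of all probe sets. Pecam1, Vwf and Kdr overlapped. Edn1, with 88.1 and 89.8 on the antibody arrays and 38.3 and 34.0 on the control arrays, made up a large part of the rise. Edn1 was also picked above as like Foxq1, so its separate groups go with that choice. The 6 liver markers, led by Apoa1, summed to 125.3 and 125.2 on the antibody arrays and 89.3 and 86.6 on the control arrays. Of those, 4 had higher antibody values without overlap, beside the same 27.6%, and only Apoa1 and Ttr were bright enough to be tested. Alb, Fga and Fgb, which are among the 4, were thus too dim. The share was 21.9% over tested probe sets alone, so dim probe sets more often had higher antibody values without overlap. The 27.6% is therefore too low a background for these markers. The part of the endothelial and liver markers in the Foxq1 difference was not tested.

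The 6 Leydig cell markers, led by Cyp17a1, summed to 1953 and 2118 on the antibody arrays and 2474 and 2501 on the control arrays, and 1 of them, Star, was called lower, as were 0.153% of all tested probe sets. Star and Fdx1 had lower antibody values without overlap, while Cyp11a1 (185.1 and 121.3 on the antibody arrays, 104.6 and 95.1 on the control arrays) and Hsd17b3 (32.2 and 37.9 on the antibody arrays, 29.3 and 26.2 on the control arrays) had higher ones. The 7 meiotic germ cell markers, led by Sycp3, summed to 1616 and 1021 on the antibody arrays and 1293 and 2072 on the control arrays, so they varied widely within each group. The 5 spermatogonial markers, led by Ccnd2, summed to 603 and 526 on the antibody arrays and 554 and 618 on the control arrays. Without overlap, 1 was lower and 1 higher on the antibody arrays. Ccnd2 was the lower one, with 165.7 and 181.7 on the antibody arrays and 256.3 and 302.8 on the control arrays. Epcam was the higher one, with 199.5 and 163 on the antibody arrays and 128.9 and 127.5 on the control arrays. The 5 epididymis and duct markers, led by Cst8, summed to 329 and 429 on the antibody arrays and 347 and 428 on the control arrays. Only Adam7 had separate groups there, with 33.8 and 38.4 on the antibody arrays and 18.1 and 19 on the control arrays. The 3 macrophage markers, led by Lyz2, summed to 145 and 163 on the antibody arrays and 136 and 131 on the control arrays. They went both ways: Lyz2 had 120.8 and 138.1 on the antibody arrays and 100.1 and 62.8 on the control arrays, and C1qb had 18.7 and 17.3 on the antibody arrays and 31.3 and 49.2 on the control arrays, each without overlap. Csf1r had 5.7 and 7.5 on the antibody arrays and 4.2 and 19.4 on the control arrays. Foxj1 was the only marker of multiciliated cells on the array. No marker was listed at 0. Over the 4 arrays, Clu lay between 6440 and 7459, Cyp17a1 between 1361 and 1730 and Sycp3 between 574 and 922. Each was picked as the brightest of its list, so these levels alone do not settle the tissue. Other members of the same lists were dim, such as Rhox5 (29.2 to 41.4), Hsd17b3 and H1f6 (6.8 to 11.4).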

How the data were processed

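RNA of testis was hybridised to 4 one-colour Affymetrix arrays. The deposited table holds a linear intensity for each probe set; its software, scaling and genome build were not given in the sources used here. After trimming 2% of probe sets at each end, every array had a mean of 125, so scale and direction are known while the background correction is not. Median intensities were 38.8 and 40.4 on the antibody arrays and 39.2 and 36.5 on the control arrays.

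Of 8799 probe sets, 59 controls were left out. The platform annotation gives 1 symbol for 7018 probe sets, several for 308 and none for 1473; 6994 symbols were updated by Entrez identifier with RefSeq's GRCr8 table. Probe sets with a mean log2(intensity + 16) at or above the 40th percentile were tested (5244) in limma 3.58.1 under R 4.3.3 (lmFit, then eBayes with trend), two-sided, Benjamini-Hochberg adjusted, threshold 0.05, without further normalization. The ± after a log2 difference is its SE. The functions were tested on simulated data.

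The members, lists and rules were chosen with earlier results of these data known. Named were all forkhead probe sets, the 3 of each linked list with the smallest p, the 5 genes most like Foxq1 and the brightest of each marker list; other genes of the lists were named after their values were seen. Groups came from the source names. Alternatives were quantile normalization, median centring, a constant of 1 or 64, no filter or one at the 60th percentile, no intensity trend, the replicate number as a block and leaving out each array.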

Additional observations from a re-analysis of the deposited data

How the results depend on the processing

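Against 14 called probe sets (6 higher, 8 lower by limma), quantile normalization gave 0 in either direction (424 with an unadjusted p under 0.05), as did the fit with no filter (702 such). Centring arrays on their medians left 4, of which 3 were higher and 1 lower. A constant of 1 called 10 (4 lower), a constant of 64 called 11 (5 lower) and no intensity trend 10 (4 lower). When each array in turn was left out, the count ran between 0 and 151, with at most 34 higher and at most 118 lower: 151 without antibody replicate 1, 94 without antibody replicate 2, and 0 without control replicate 1 (370 with an unadjusted p under 0.05) or control replicate 2 (269 such). The lone array is then assumed to vary like the other group. The replicate number as a block gave 39 calls (12 higher, 27 lower), but replicate differences of the groups were uncorrelated (r = 0.0024 over 5244 probe sets). The numbers were therefore taken as names of samples and not as pairs. With 1 replicate difference per group, r cannot show whether arrays of the same number shared a batch. The cause of these changes in the count was not tested, except that a filter sets how many probe sets enter the adjustment.

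The Foxq1 difference stayed above 0 in all 12 alternatives, but many of these could not have turned it. Either filter setting, no intensity trend and the replicate block leave a difference of group means unchanged by construction. Its separate groups fix the sign when 1 array is left out and with either added constant. Only quantile normalization and median centring could have turned it. The difference was 1.62 with a constant of 1 and 0.83 with 64. It moved by less than its replicate SD with quantile normalization, median centring and each array left out. No member of the linked lists was called in any of the 12. Among tested probe sets outside the 5 genes whose difference is printed as a forkhead, a linked gene or Exoc2, directions turned when 1 array was left out for Foxk2 (−0.37 to 0.32), Foxo1 (−0.062 to 0.26), Gata4 L22761_at (−0.12 to 0.39), Exoc2 AF032666_g_at (−0.52 to 0.14), Ccne1 D14015_at (−0.30 to 0.30), Aurkb (−0.51 to 0.038), Nr3c1 M14053_at (−0.35 to 0.23), Tjp1 (−0.20 to 0.18), Ccnb1 rc_AA998164_s_at (−0.060 to 0.028), Plk1 (−0.25 to 0.063), Cdk1 (−0.26 to 0.061) and Vim (−0.20 to 0.0090). Ccne1 D14015_at also turned with quantile normalization (−0.046), median centring (−0.046) and a constant of 1 (−0.0073), and Tjp1 with quantile normalization (0.0050). Without detection calls, signal over background is not known.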
